A study of Homo sapiens with 48 samples.

Results

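Kelly is a human neuroblastoma line that the labels describe as MYCN-amplified and of wild-type genotype. STM2457 is a small molecule that inhibits the METTL3 enzyme. Kelly cells received it at 8 µM, or DMSO, for 3 days and were harvested at 0 h of actinomycin D, before transcription was blocked. These 4 libraries, 2 with STM2457 and 2 with DMSO, were chosen by their titles from the 48 libraries of the study. The other groups differ from them by line (Kelly or NGP, also labelled MYCN-amplified and wild-type), by 6 in place of 3 days of treatment, or by 3 or 6 h of actinomycin D at 10 µg/ml. Per the labels' protocols, RNA was extracted with TRIzol and enriched for poly(A) on magnetic beads before cDNA synthesis with a SMART kit. The comparison asks what 3 days of METTL3 inhibition do to transcript levels in growing cells, ahead of the decay measurements. Kelly is 1 line, and the labels do not say whether replicates are separate cultures, so p-values measure only the spread between these samples. In such bulk RNA, fewer cells of a type and less RNA per cell cannot be told apart.

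METTL3 is the catalytic subunit of the nuclear complex, with METTL14 and WTAP, that places N-methyl groups on adenosines of mRNA to give m6A. The mark lies mostly near stop codons, in 3′ untranslated regions and in long internal exons, and reader proteins of the YTH family recruit deadenylases to marked transcripts, so that m6A is known to shorten mRNA lifetime. Neuroblastoma arises from the sympathoadrenal lineage of the neural crest. Adrenergic neuroblastoma cells make catecholamines and carry the transcription factors of that lineage, and neuronal differentiation of such cells is usually followed through neurofilaments, neurotrophic receptors and neurite genes.

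The libraries held 15569688 and 13996455 fragments in genes in DMSO and 13894675 and 14235437 in STM2457. CPM below is a gene's fragment count scaled to the TMM-corrected depth of its library, and log2 changes are STM2457 minus DMSO with their SE. A gene was called where edgeR (quasi-likelihood F test, Benjamini-Hochberg adjustment) gave an adjusted p under 0.05. Gene positions are in GRCh38. The inhibitor targets the enzyme and not its transcript, so no targeted gene serves as a check of the labels. The lineage of the line showed in the markers of adrenergic cells. Its 10 genes summed to 224858 to 236780 fragments in DMSO and 210824 to 211663 in STM2457, and 7 mesenchymal-type markers to 2468 to 2836, not scaled for depth. In DMSO replicate 1 most of the first sum came from MYCN (89512), labelled amplified, and CHGA (83332). ISL1, the lowest of the 10 in DMSO, stood at 110 and 99.2 CPM there. FN1 (1137) and TWIST1 (1249) gave most of the mesenchymal-type sum in DMSO replicate 1. Markers of other cells stayed near 0 in both groups, with 18 to 50 fragments over 4 Schwann cell markers (S100B at 0), 0 to 4 over 5 immune and blood markers (PTPRC and HBB at 0) and 6 to 26 over 4 epithelial markers (KRT5, KRT14 and CDH1 at 0). ERCC spike-ins, synthetic RNAs added in known amounts, took 0.381 and 0.382% of fragments in DMSO and 0.290 and 0.298% in STM2457. Scaling to them moves the median log2 change of all genes from 0.00 to 0.38, so every value below is relative to the typical gene, and list medians are also given with that scaling. The labels do not say at which step the spike-ins were added. STM2457 replicate 2 correlated as well with the DMSO libraries (Pearson r 0.975 and 0.976 over log CPM of genes) as with STM2457 replicate 1 (0.974), which is as the DMSO libraries correlated with each other (0.974).

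Over all genes the treatment changed a small set, and mostly by less than 2-fold. Of 16759 genes tested, 1.68% were called, 97 of them higher under STM2457 (0.579% of genes tested) and 185 lower (1.1%). The median change was 0.46 among the higher and -0.41 among the lower genes, and 4 higher and 25 lower genes passed 2-fold. The called genes were mostly abundant ones: of 282, 228 lay in the highest of 4 equal classes of mean CPM (above 53.4 CPM), 42 in the next, 10 in the one after and 2 in the lowest. Of 9455 genes of at least 10 CPM, 1.02% were called higher and 1.88% lower. The list counts below stand beside these shares, and lists with 1 or 2 calls describe those genes and not the list. Both STM2457 libraries lay above both DMSO libraries for 97 of 97 higher genes, against 20.1% of all genes tested, and below them for 184 of 185 lower genes, against 19% of all. The calls were made on these same libraries, so this separation describes them and is no separate support. The exception, RPS29, rests on 1 library and is described with the ribosomal proteins. With any 1 of the 4 libraries left out, 122 to 158 genes were called, and 74 (17 higher, 57 lower) were called in all 4 refits. With ERCC scaling 3694 genes were called higher and 33 lower. Of changes planted in simulated counts the test found 60% at 2-fold and 74% at 4-fold, so genes that were not called are not shown to be unchanged.

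**Figure D1:**
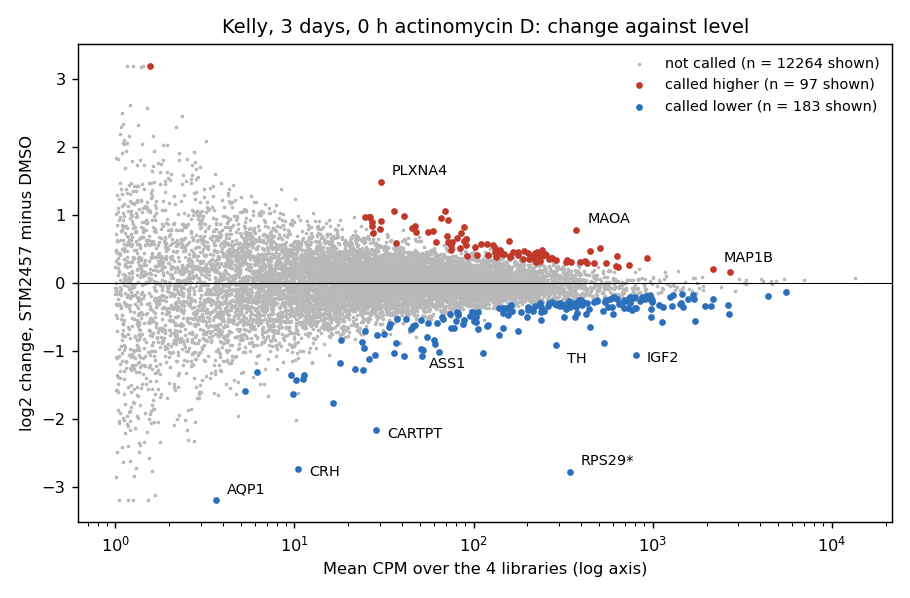
Each point is a gene with a mean of at least 1 CPM, placed by its mean CPM over the 4 libraries (log axis) and its log2 change, STM2457 minus DMSO; coloured points are the genes called higher or lower. Called genes crowd at high CPM, where small changes pass the test, and the lower ones (185) outnumber the higher ones (97); 2 called genes below 1 CPM are not shown, values beyond 3.2 are drawn at that limit (2 called genes), and RPS29 rests on DMSO replicate 1.

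Among abundant called genes (mean of at least 10 CPM) whose groups did not overlap, which leaves out RPS29, the 12 largest increases ranged from 0.84 to 1.49 and the 12 largest decreases from -1.07 to -2.74 on the log2 scale. PLXNA4, a plexin that takes part in semaphorin signalling (chromosome 7, positions 132123332 to 132648688), stood at 18.5 and 13.6 CPM in the DMSO libraries and 47.8 and 42.2 CPM in the STM2457 libraries (1.49 ± 0.29, edgeR adjusted p 0.000130). ARHGEF28, a guanine nucleotide exchange factor (chromosome 5, positions 73626158 to 73941993), stood at 51.7 and 38.3 CPM in the DMSO libraries and 94.3 and 92.8 CPM in the STM2457 libraries (1.05 ± 0.18, edgeR adjusted p 3.34e-06). ATP7A, a copper transporter (chromosome X, positions 77910656 to 78050395), stood at 42.3 and 47.3 CPM in the DMSO libraries and 96.7 and 78.0 CPM in the STM2457 libraries (0.96 ± 0.16, edgeR adjusted p 3.00e-06). In these 3 genes the groups did not overlap, and each call held with any 1 library left out. RBMS3, an RNA-binding protein gene (chromosome 3, positions 28574791 to 30010391), rose from 28.7 and 26.3 to 55.4 and 54.0 CPM (0.99 ± 0.19, edgeR adjusted p 8.78e-05), with replicates close to each other in both groups, and shares exon sequence (5.58% of its bases) with AC098650.1, so its counts are uncertain. BCL2, the founding anti-apoptotic gene of its family (chromosome 18, positions 63123346 to 63320128), rose from 53.6 and 45.3 to 94.5 and 92.9 CPM (0.92 ± 0.19, edgeR adjusted p 0.000369). The other 7 were less stable: SRGAP1, a GTPase-activating protein of Slit-Robo signalling (1.06), SLC6A17, a vesicular amino acid transporter of neurons (0.98), COPS9 of the COP9 signalosome (0.97), LRRC45 of the centrosome linker (0.97), TRNT1, which adds CCA to tRNA ends (0.92), TMOD1, which caps actin filaments (0.90), and the phosphatase gene DUSP26 (0.84). Leaving out 1 library ended the call for SLC6A17 (0.96 to 1.01), TRNT1 (0.76 to 1.11) and DUSP26 (0.82 to 0.88) in all 4 such refits, for LRRC45 (0.86 to 0.99) without any 1 of the libraries other than STM2457 replicate 2 and for TMOD1 (0.67 to 1.03) without any 1 of the libraries other than DMSO replicate 2. The same held for SRGAP1 (0.77 to 0.87) without DMSO replicate 1 or STM2457 replicate 2, for COPS9 (0.71 to 0.79) without DMSO replicate 1 or STM2457 replicate 1 and for BCL2 (0.81) without DMSO replicate 2. Calls were also lost with DESeq2 and robust dispersion estimates (PLXNA4), limma-voom (COPS9, LRRC45, TRNT1, TMOD1, DUSP26) and the fit of all 48 libraries (COPS9, TMOD1).

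The largest decreases included those of 2 neuropeptide genes. CRH, which encodes corticotropin-releasing hormone (chromosome 8, positions 66176376 to 66178464), stood at 16.1 and 20.4 CPM in the DMSO libraries and 1.97 and 3.47 CPM in the STM2457 libraries (-2.74 ± 0.50, edgeR adjusted p 4.64e-05). CARTPT, the precursor of the CART peptides (chromosome 5, positions 71719275 to 71721048), stood at 50.2 and 43.4 CPM in the DMSO libraries and 11.4 and 9.35 CPM in the STM2457 libraries (-2.17 ± 0.22, edgeR adjusted p 1.69e-15). ARHGAP36 (chromosome X, positions 131058346 to 131089885), a GTPase-activating protein gene known for its part in protein kinase A signalling, stood at 32.3 and 35.6 CPM in the DMSO libraries and 13.2 and 14.9 CPM in the STM2457 libraries (-1.27 ± 0.25, edgeR adjusted p 0.000135). PIEZO1, a mechanically gated cation channel (chromosome 16, positions 88715338 to 88785220), fell from 31.8 and 29.4 to 12.9 and 12.6 CPM (-1.26 ± 0.25, edgeR adjusted p 0.000257). RFK, riboflavin kinase (chromosome 9, positions 76385526 to 76394517), fell from 72.2 and 67.8 to 35.7 and 30.5 CPM (-1.08 ± 0.18, edgeR adjusted p 3.92e-06). SCUBE1, a secreted and cell-surface glycoprotein (chromosome 22, positions 43197280 to 43343372), fell from 49.0 and 61.3 to 24.1 and 28.5 CPM (-1.07 ± 0.17, edgeR adjusted p 5.62e-07). The groups were apart in all 6 of these genes, and each call held with any 1 library left out. The kinase gene CDK18 (-1.18), the muscarinic receptor CHRM3 (-1.11), the serotonin-gated channel subunit HTR3A (-1.42), IGSF1 (-1.35), CYSTM1 (-1.43) and C2CD4A (-1.76) were called lower too, and each lost the call in at least 1 refit with a library left out. Refits with 1 library left out lost the call for CHRM3 (-1.20 to -1.002) and CYSTM1 (-1.64 to -1.19) in all 4 such refits, for HTR3A (-1.50 to -0.92) and IGSF1 (-1.50 to -1.21) without any 1 of the libraries other than DMSO replicate 1 and for C2CD4A (-1.90 to -1.38) without any 1 of the libraries other than STM2457 replicate 2. The call was further lost for CDK18 (-0.95) without DMSO replicate 2. The call was absent with the fit of all 48 libraries (CRH, SCUBE1, CHRM3, HTR3A, IGSF1, CYSTM1, C2CD4A), limma-voom (CDK18, HTR3A, IGSF1, CYSTM1) and the fit of the 12 Kelly libraries at 3 days (CDK18, IGSF1, C2CD4A). Below 10 CPM, the water channel gene AQP1 was counted 128 and 79 times in DMSO against 0 and 18 in STM2457. Its fitted change of -3.45 ran from -9.77 without STM2457 replicate 2, which leaves 0 counts on that side, to -2.46 without STM2457 replicate 1, and it shares exon sequence (26.5% of its bases) with AC004691.2, so that its counts are uncertain. The serine protease gene KLK4 was also called (-1.63 ± 0.37, edgeR adjusted p 0.00244) from 15.3 and 14.4 CPM in DMSO against 7.08 and 2.54 CPM in STM2457. In refits without 1 library the call was lost for KLK4 (-1.06) without STM2457 replicate 2. Other settings that ended a call were limma-voom and the fit of all 48 libraries (KLK4). ERCC scaling lost the call of CHRM3 (-0.71) and CYSTM1 (-1.03).

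**Figure D2:**
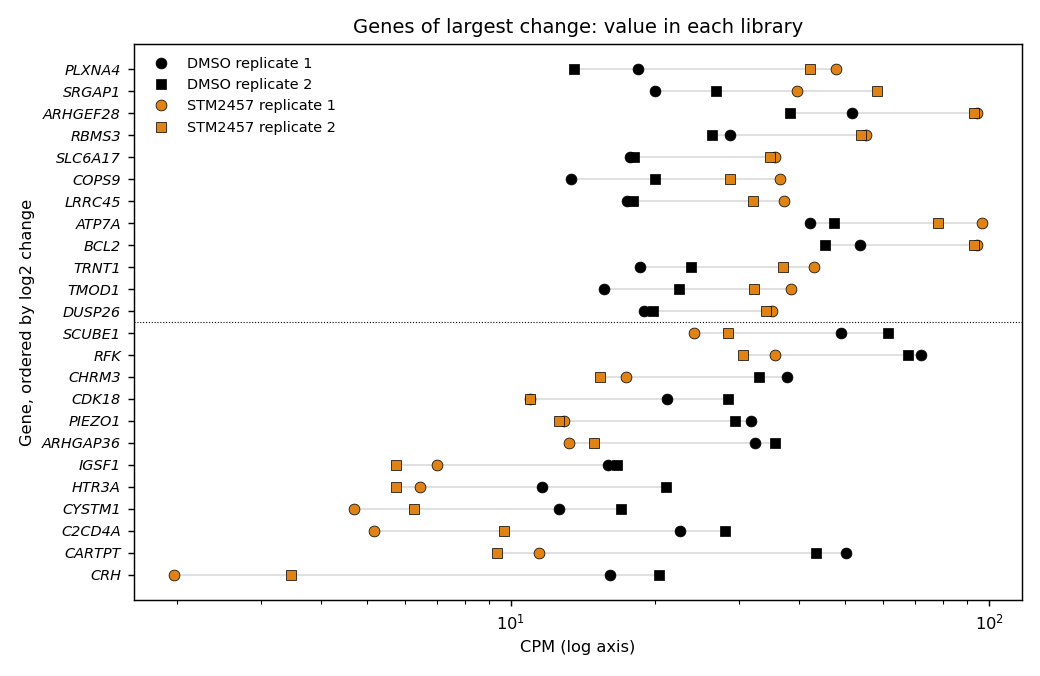
CPM in each of the 4 libraries (log axis) for the 12 genes of largest increase and the 12 of largest decrease among called genes of at least 10 CPM whose groups do not overlap (RPS29 is thereby left out); circles and squares are replicates 1 and 2, black for DMSO and orange for STM2457. Both orange points lie on one side of both black points in every row, as the choice of genes requires, and the gap is widest for CRH and CARTPT.

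The smallest adjusted p-values belonged to abundant genes with smaller changes. MAOA, the monoamine oxidase taken up below, led the higher genes and was followed by AKAP12, a scaffold for protein kinase A (chromosome 6, positions 151239967 to 151358559), at 416 and 425 CPM in the DMSO libraries and 601 and 602 CPM in the STM2457 libraries (0.52 ± 0.071, edgeR adjusted p 7.57e-09). The replicates of AKAP12 were within a few CPM of each other in both groups. ZNF704 (chromosome 8, positions 80628451 to 80874781), a zinc finger gene, rose from 828 and 794 to 1049 and 1055 CPM (0.38 ± 0.055, edgeR adjusted p 1.05e-07). On the lower side stood 4 imprinted genes and TH. IGF2, an insulin-like growth factor, had the smallest adjusted p of all genes (-1.06 ± 0.059, edgeR adjusted p 3.22e-39), and shares exon sequence (70.7% of its bases) with AC132217.2, so that its counts are uncertain. RTL1, a gene derived from a retrotransposon (chromosome 14, positions 100879753 to 100903722), stood at 651 and 733 CPM in the DMSO libraries and 367 and 381 CPM in the STM2457 libraries (-0.89 ± 0.067, edgeR adjusted p 4.54e-25). DLK1, a membrane protein that resembles Notch ligands (chromosome 14, positions 100725705 to 100738224), stood at 2037 and 2071 CPM in the DMSO libraries and 1440 and 1359.9 CPM in the STM2457 libraries (-0.55 ± 0.044, edgeR adjusted p 3.67e-23). GNAS, the stimulatory G protein alpha subunit (chromosome 20, positions 58839718 to 58911192), stood at 3066 and 3091 CPM in the DMSO libraries and 2214 and 2269.8 CPM in the STM2457 libraries (-0.46 ± 0.038, edgeR adjusted p 1.02e-21). The groups did not overlap in any of these genes, and the calls of AKAP12, ZNF704, IGF2, RTL1, DLK1 and GNAS held in every refit that left out 1 library. With ERCC scaling the call was also lost for GNAS (-0.057).

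The genes of the m6A machinery itself did not pass the test at 3 days and 0 h. METTL3 stood at 46.5 and 53.1 CPM in DMSO against 48.4 and 55.5 CPM in STM2457, METTL14 at 49.2 and 48.04 CPM in DMSO against 43.1 and 58.0 CPM in STM2457, and in both the groups overlapped. WTAP, the adaptor of the complex, stood at 96.0 and 108 CPM in DMSO against 151 and 138 CPM in STM2457 (0.50 ± 0.16, edgeR adjusted p 0.0761), with the groups apart, and shares exon sequence (6.81% of its bases) with SOD2, so that its counts are uncertain. Of 18 writer, eraser and reader genes 0 were called, and 5 had an unadjusted p under 0.05 (DESeq2 and the other alternatives but ERCC scaling called at most 3). The median of the list was 0.17 (0.57 with ERCC scaling), with 16 of 18 members above 0, against 0.00 for all genes (0.38 with ERCC scaling). Its most abundant members were IGF2BP1, a reader, which differed by -0.018 ± 0.057 and ZC3H13, a writer subunit, which differed by 0.24 ± 0.080. At 3 h of actinomycin D 3 of the 18 were called higher and 1 lower, against 2.05 and 3.78% of all genes. At 6 h these were 6 and 1, against 3.45 and 4.36%. At 6 days in Kelly 3 were called higher and 0 lower, against 2.7 and 1.26%. In NGP at 3 days 1 was called higher and 0 lower, against 0.709 and 1.26%. The list medians there were 0.18, 0.22, 0.20 and 0.095. MYCN, whose amplification defines the line, stood at 5532 and 6035 CPM in DMSO against 5541 and 5271 CPM in STM2457 (-0.10 ± 0.047, edgeR adjusted p 0.532), and its groups overlapped.

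Genes that make and store catecholamines, the transmitters of this lineage, fell. Dopamine is made from tyrosine by TH and DDC, loaded into vesicles by SLC18A1 and SLC18A2, turned into noradrenaline by DBH, and broken down by MAOA. TH (chromosome 11, positions 2163929 to 2171877) stood at 391.7 and 366 CPM in the DMSO libraries and 213 and 189 CPM in the STM2457 libraries (-0.91 ± 0.081, edgeR adjusted p 9.55e-20). DDC (chromosome 7, positions 50458436 to 50565405) stood at 531 and 560.5 CPM in the DMSO libraries and 339.5 and 354 CPM in the STM2457 libraries (-0.65 ± 0.070, edgeR adjusted p 2.43e-14). DBH (chromosome 9, positions 133636363 to 133659329), named here after its values were seen, stood at 1314 and 1374 CPM in the DMSO libraries and 905 and 905 CPM in the STM2457 libraries (-0.57 ± 0.052, edgeR adjusted p 5.49e-19). For all 3 enzymes each STM2457 library lay well below each DMSO library. The vesicular transporters fell alike, SLC18A1 from 75.7 and 62.4 to 35.4 and 34.3 CPM (-0.99 ± 0.17) and SLC18A2 from 81.1 and 78.4 to 40.2 and 45.4 CPM (-0.90 ± 0.15). MAOA (chromosome X, positions 43654907 to 43746824) moved the other way, from 288 and 264 CPM in DMSO to 469.9 and 481 CPM in STM2457 (0.78 ± 0.073, edgeR adjusted p 2.69e-18). Of 12 pathway genes tested 5 were called lower and 1 higher, with a median of -0.22 (0.18 with ERCC scaling) (over the alternatives other than ERCC scaling 4 to 7 members were called). None of the 6 calls was lost when 1 library was left out. SLC18A2 shares exon sequence (52.3% of its bases) with PDZD8, so that its counts are uncertain. A call was missing with the fit of all 48 libraries (SLC18A1, SLC18A2).

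The same genes were read in other libraries of the study. In Kelly after 6 days, TH, DDC and DBH differed by -0.54, -0.61 and -0.34, SLC18A1 and SLC18A2 by -1.01 and -0.60 and MAOA by 0.35, all called with the sign they had at 3 days. In NGP after 3 days the values were 1.10 for TH, 0.26 for DDC, 0.13 for DBH, -2.06 ± 0.87 for SLC18A1, 0.70 for SLC18A2 and 0.10 for MAOA, and none of these was called. Of the 12 genes 1 was called higher there and 0 lower, against 0.709 and 1.26% of all genes. The difference of the effects, NGP minus Kelly, passed edgeR's test for DDC (0.90 ± 0.11, adjusted p 6.66e-07) and DBH (0.69 ± 0.11, adjusted p 7.11e-05), and did not pass for TH (adjusted p 0.231). All of them were named after being called lower in the Kelly libraries that enter this difference, so their differences are descriptions. In the synapse and secretory vesicle list 0 of 24 genes were called (4 at an unadjusted p under 0.05 by edgeR, and at most 2 called by the alternatives other than ERCC scaling). Chromogranin A (CHGA) stood at 5151 and 5462 CPM in DMSO against 5501 and 5526 CPM in STM2457 and chromogranin B (CHGB) at 459.9 and 482 CPM in DMSO against 451 and 489.9 CPM in STM2457, with values of 0.055 ± 0.034 and -0.0014 ± 0.068.

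Receptors for glial cell line-derived neurotrophic factors rose. GFRA1 and GFRA2, which bind the ligands, and RET, the tyrosine kinase that signals for them, were all called higher. GFRA1 (chromosome 10, positions 116056925 to 116273467) stood at 84.0 and 94.4 CPM in the DMSO libraries and 140.2 and 125 CPM in the STM2457 libraries (0.57 ± 0.12, edgeR adjusted p 0.000653). RET (chromosome 10, positions 43077064 to 43130351) stood at 191 and 189.6 CPM in the DMSO libraries and 253 and 267 CPM in the STM2457 libraries (0.45 ± 0.10, edgeR adjusted p 0.00287). GFRA2 (chromosome 8, positions 21690398 to 21812357) stood at 72.8 and 66.4 CPM in DMSO against 98.0 and 115 CPM in STM2457 (0.62 ± 0.16). Groups were apart in all 3. NTRK3, the receptor of neurotrophin 3, was counted 2 and 5 times in DMSO and 49 and 36 times in STM2457, and its call rests on these few fragments. Of 17 receptors and ligands tested 4 were called higher and 0 lower, with a median of 0.22 (0.62 with ERCC scaling) (over the alternatives other than ERCC scaling 1 to 5 members were called). Left-out libraries ended the call for GFRA2 (0.50 to 0.69) without any 1 of the libraries other than STM2457 replicate 1, for NTRK3 (3.04 to 4.46) without any 1 of the libraries other than STM2457 replicate 2 and for GFRA1 (0.49 to 0.50) without DMSO replicate 1 or STM2457 replicate 1. It was also lost for RET (0.42) without STM2457 replicate 2. Settings that did not call a gene named here were the fit of all 48 libraries (GFRA2, NTRK3), DESeq2 (RET) and limma-voom, the fit of the 4 libraries alone and the fit of the 12 Kelly libraries at 3 days (NTRK3). At 6 days RET differed by 1.44, which exceeded its change at 3 days by 0.99 ± 0.15 (edgeR adjusted p 4.68e-07 for the difference), and GFRA1 by 0.51. In NGP at 3 days RET differed by 0.78 (called) and GFRA1 by 0.021 (not called), and that difference between the lines did not pass for either gene (adjusted p 1.00 and 0.231).

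Neuronal structure genes moved in both directions. NEFL, the light neurofilament, stood at 110.0 and 134 CPM in DMSO against 167 and 162 CPM in STM2457 (0.43 ± 0.10) and DCX, a microtubule protein of young neurons, at 22.2 and 19.02 CPM in DMSO against 41.4 and 27.6 CPM in STM2457 (0.74 ± 0.19). MAP1B, a microtubule-associated protein of growing axons (chromosome 5, positions 72107234 to 72209565), stood at 1988 and 2037 CPM in DMSO against 2340 and 2312 CPM in STM2457 (0.21 ± 0.043, edgeR adjusted p 0.000529). NEFH, the heavy neurofilament, was lower at 1026 and 1048 CPM in DMSO against 831 and 940.1 CPM in STM2457 (-0.23 ± 0.061). Of 24 structure genes 3 were called higher and 1 lower, with a median of 0.11 (0.51 with ERCC scaling) (over the alternatives other than ERCC scaling 2 to 5 members were called). Among 48 axon guidance genes PLXNA4 and SLIT3 were called higher and PLXNA1 lower, with a median of 0.043 (0.44 with ERCC scaling) (over the alternatives other than ERCC scaling 3 to 7 members were called). That is 4.17% of the guidance genes higher and 2.08% lower, against 1.02 and 1.88% of all genes of at least 10 CPM. SLIT3, a secreted guidance ligand (chromosome 5, positions 168661733 to 169301129), stood at 558 and 535 CPM in DMSO against 732 and 709 CPM in STM2457 (0.40 ± 0.067, edgeR adjusted p 3.94e-06). PLXNA1, a plexin of the same subfamily as PLXNA4 (chromosome 3, positions 126988594 to 127037392), stood at 592 and 605 CPM in DMSO against 453 and 450.1 CPM in STM2457 (-0.41 ± 0.069, edgeR adjusted p 6.40e-06). CLSTN2, a synaptic adhesion protein, stood at 352 and 347 CPM in DMSO against 424 and 446 CPM in STM2457 (0.32 ± 0.077). With 1 library left out the call was lost for NEFH (-0.23 to -0.14) without any 1 of the libraries other than STM2457 replicate 2, for CLSTN2 (0.29 to 0.34) without any 1 of the libraries other than STM2457 replicate 1 and for NEFL (0.31 to 0.42) without DMSO replicate 1 or STM2457 replicate 1. The same held for DCX (0.43 to 0.64) without DMSO replicate 2 or STM2457 replicate 1. Calls were also lost with limma-voom (NEFL, DCX), the fit of the 12 Kelly libraries at 3 days (DCX), scaling to library size alone (NEFH), the fit of all 48 libraries (NEFH, CLSTN2) and removal of the length trend (CLSTN2). Of 37 ion channel genes 0 were called (7 at an unadjusted p under 0.05 by edgeR, at most 1 by the alternatives other than ERCC scaling). Not called with ERCC scaling were NEFH (0.17) and PLXNA1 (-0.0055).

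Lineage transcription factors mostly did not pass the test after adjustment. Of all genes tested, 1455 of 16759 had an unadjusted p under 0.05 by edgeR, and 1275 of 9455 among those of at least 10 CPM. Counts at that unadjusted threshold, here and in the other lists, stand beside these. Of 20 adrenergic factors 1 was called and 10 had an unadjusted p under 0.05 by edgeR (over the alternatives other than ERCC scaling 0 to 7 members were called). The called factor was HAND2, at 936 and 933 CPM in DMSO against 801 and 815 CPM in STM2457 (-0.21 ± 0.060), and the median of the list was 0.029 (0.43 with ERCC scaling). Of 20 mesenchymal-type genes 0 were called (2 at an unadjusted p under 0.05 by edgeR, at most 1 by the alternatives other than ERCC scaling), where FN1 and FOSL2, the most abundant, differed by 0.19 ± 0.13 and 0.18 ± 0.15. In the retinoid pathway CRABP2, which carries retinoic acid in the cell, was called lower from 6.98 and 10.7 CPM in DMSO against 4.36 and 2.74 in STM2457, as 1 of 17. IGF2 was the 1 called member of 13 in the IGF axis, and DLK1 of 20 in the Notch and ID list with a median of -0.061 (0.32 with ERCC scaling). In the extracellular matrix and adhesion list 2 of 40 were called lower: the collagen gene COL18A1 (72.4 and 81.7 CPM in DMSO against 44.4 and 42.1 CPM in STM2457, -0.83 ± 0.13), which shares exon sequence (18.5% of its bases) with SLC19A1 and is uncertain, and the integrin gene ITGB5 (184 and 173 CPM in DMSO against 107 and 118 CPM in STM2457, -0.67 ± 0.11). Both calls held with 1 library left out. Leaving out 1 library ended the call for HAND2 (-0.21 to -0.19) in all 4 such refits and for CRABP2 (-1.68 to -0.97) without any 1 of the libraries other than DMSO replicate 1. The call was absent with scaling to library size alone and removal of the length trend (HAND2), the fit of the 12 Kelly libraries at 3 days (HAND2, CRABP2) and limma-voom, the fit of the 4 libraries alone and the fit of all 48 libraries (CRABP2). Scaling to ERCC also ended the call of HAND2 (0.19), CRABP2 (-0.91) and ITGB5 (-0.27).

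Several genes that supply amino acids or charge tRNAs fell. ATF4 is the transcription factor that is translated when amino acids run short, and it induces ASNS, amino acid transporters and many tRNA synthetases. ASNS, asparagine synthetase (chromosome 7, positions 97851677 to 97872542), stood at 88.1 and 104 CPM in the DMSO libraries and 59.0 and 62.3 CPM in the STM2457 libraries (-0.66 ± 0.12, edgeR adjusted p 3.74e-05). ASS1, argininosuccinate synthetase (chromosome 9, positions 130444961 to 130501274), stood at 158 and 144 CPM in the DMSO libraries and 82.0 and 65.5 CPM in the STM2457 libraries (-1.03 ± 0.11, edgeR adjusted p 4.36e-15). PHGDH, the entry enzyme of serine synthesis (chromosome 1, positions 119648411 to 119744226), stood at 255 and 308 CPM in the DMSO libraries and 193 and 193 CPM in the STM2457 libraries (-0.54 ± 0.085, edgeR adjusted p 5.39e-07). In all 3 both STM2457 libraries lay below both DMSO libraries. Of 29 serine, glycine and one-carbon enzymes 6 were called lower and 0 higher, with a median of -0.16 (0.24 with ERCC scaling) (over the alternatives other than ERCC scaling 4 to 8 members were called). The list held these 3 as well as the folate enzymes MTHFD2 (-0.51), MTHFD1 (-0.35) and ALDH1L2 (-0.75). Of 23 genes of the ATF4 and amino acid response 4 were called lower and 0 higher, with a median of -0.20 (0.20 with ERCC scaling) (over the alternatives other than ERCC scaling 1 to 5 members were called). Apart from ASNS they were transporters of the cell surface: SLC7A11, which exchanges cystine for glutamate (-0.96), SLC7A5, a carrier of large neutral amino acids (-0.41), and SLC3A2, their common heavy chain (-0.57). These 3 were also the called members among 24 amino acid transporters, whose median was -0.053 (0.32 with ERCC scaling) (over the alternatives other than ERCC scaling 0 to 3 members were called). MTHFD2 shares exon sequence (27.5% of its bases) with SLC4A5, so that its counts are uncertain. Refits with 1 library left out lost the call for SLC7A11 (-1.03 to -0.87) and SLC7A5 (-0.43 to -0.36) in all 4 such refits, for MTHFD1 (-0.35 to -0.24) and ALDH1L2 (-0.80 to -0.57) without any 1 of the libraries other than STM2457 replicate 2 and for SLC3A2 (-0.61 to -0.44) without any 1 of the libraries other than DMSO replicate 1. Other settings that ended a call were limma-voom (MTHFD1, ALDH1L2, SLC7A11, SLC7A5), the fit of the 12 Kelly libraries at 3 days (ALDH1L2) and the fit of all 48 libraries (SLC3A2). ERCC scaling lost the call of ASNS (-0.26), PHGDH (-0.14), MTHFD2 (-0.11), MTHFD1 (0.050), ALDH1L2 (-0.35), SLC7A11 (-0.56), SLC7A5 (-0.0048) and SLC3A2 (-0.17).

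Of 20 cytosolic aminoacyl-tRNA synthetases, which join amino acids to tRNAs, 5 were called lower and 0 higher, with a median of -0.26 (0.14 with ERCC scaling), and 19 lay below 0 (over the alternatives other than ERCC scaling 3 to 8 members were called). YARS1, the tyrosyl enzyme (chromosome 1, positions 32775237 to 32818153), stood at 149 and 142 CPM in DMSO against 88.6 and 100.4 CPM in STM2457 (-0.62 ± 0.12, edgeR adjusted p 6.83e-05). GARS1, the glycyl enzyme (chromosome 7, positions 30594838 to 30634033), stood at 431 and 432 CPM in DMSO against 301 and 312 CPM in STM2457 (-0.49 ± 0.077, edgeR adjusted p 5.44e-07). EPRS1, which charges glutamate and proline (chromosome 1, positions 219968600 to 220046530), stood at 721 and 707 CPM in DMSO against 579.6 and 576 CPM in STM2457 (-0.31 ± 0.062, edgeR adjusted p 0.000311). These 3 calls held with any 1 library left out. The valyl enzyme gene VARS1 (-0.30) and the alanyl enzyme gene AARS1 (-0.30) were closer to the threshold. In refits without 1 library the call was lost for AARS1 (-0.31 to -0.27) in all 4 such refits and for VARS1 (-0.22 to -0.20) without DMSO replicate 2 or STM2457 replicate 1. A call was missing with scaling to library size alone, limma-voom, the fit of the 12 Kelly libraries at 3 days, the fit of all 48 libraries and removal of the length trend (AARS1). At 6 days in Kelly 6 of the 20 were called lower, at 3 h and 6 h of actinomycin D 10 each, and in NGP at 3 days 2, with 0 called higher in any of the 4. Of all genes 1.26% were called lower at 6 days, 3.78 and 4.36% at 3 h and 6 h, and 1.26% in NGP. With ERCC scaling the call was also lost for YARS1 (-0.22), GARS1 (-0.093), EPRS1 (0.094), VARS1 (0.10) and AARS1 (0.10).

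ATF4 acts through a composite element whose core resembles TGATGNAA. Promoter windows (250 bases before to 50 bases after the start, RefSeq on GRCh38.p14, matched by symbol, the first window of a symbol used) were searched for these letters on both strands. They were found in 286 of 13106 promoters of tested genes (2.18%), in 15 of 71 promoters of the 4 amino acid lists together (21.1%), in 3 of 10 whose genes were called lower and in 12 of 61 not called. A match describes letters and not a bound site. The 3 lower genes with a match are shown 5′ to 3′ on the strand of the gene, with the match in capitals: ASNS (chr7:97872443-97872502, minus strand), where it lies 68 to 61 bases before the start in the orientation of the gene, AARS1 (chr16:70289660-70289719, minus strand), 187 to 180 bases before the start on the opposite strand, and SLC3A2 (chr11:62881719-62881748, plus strand), 38 to 45 bases after the start on the opposite strand.
ASNS: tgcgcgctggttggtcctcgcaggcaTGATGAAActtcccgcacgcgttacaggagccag
AARS1: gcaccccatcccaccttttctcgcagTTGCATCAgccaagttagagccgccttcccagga
SLC3A2: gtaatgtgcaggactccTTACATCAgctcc

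Several glycolysis genes fell. SLC2A1, the basal glucose transporter (chromosome 1, positions 42925375 to 42958868), stood at 174 and 176 CPM in the DMSO libraries and 100.1 and 105 CPM in the STM2457 libraries (-0.77 ± 0.14, edgeR adjusted p 2.56e-05). LDHA, a lactate dehydrogenase subunit (chromosome 11, positions 18394560 to 18408425), stood at 369 and 383 CPM in the DMSO libraries and 247 and 284 CPM in the STM2457 libraries (-0.50 ± 0.082, edgeR adjusted p 2.76e-06). PKM, pyruvate kinase (chromosome 15, positions 72199029 to 72231822), stood at 1062 and 1147 CPM in the DMSO libraries and 854 and 838 CPM in the STM2457 libraries (-0.39 ± 0.055, edgeR adjusted p 2.71e-08). None of the groups overlapped. Of 30 genes of glycolysis and the hypoxia response 7 were called lower and 0 higher, with a median of -0.28 (0.086 with ERCC scaling), and 23 lay below 0 (over the alternatives other than ERCC scaling 6 to 11 members were called). The others were the pathway enzymes TPI1 (-0.37), ALDOA (-1.03, which shares exon sequence (43.3% of its bases) with AC093512.2 and is uncertain) and, named after their values were seen, GAPDH (-0.33) and ENO1 (-0.35). Left-out libraries ended the call for ALDOA (-0.84) without STM2457 replicate 1. The other 6 calls held with any 1 library left out. With ERCC scaling PKM, TPI1, GAPDH and ENO1 came to 0.016, 0.033, 0.074 and 0.047, all below the shifted median of all genes. At 6 days SLC2A1 still differed by -0.87, while PKM (0.043), TPI1 (0.11) and ENO1 (0.035) did not pass. The difference, 6 minus 3 days, passed edgeR's test for PKM (0.43, adjusted p 6.31e-05), TPI1 (0.47, adjusted p 1.38e-05) and ENO1 (0.39, adjusted p 0.000129). These genes were named after being called lower in the 3-day libraries that enter this difference, so their differences are descriptions. Not called with ERCC scaling were LDHA (-0.10), PKM (0.016), TPI1 (0.033), GAPDH (0.074) and ENO1 (0.047).

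Cytosolic ribosomal protein mRNAs were the largest group of lower genes. Their genes took 5.28 and 5.39% of fragments in DMSO and 4.70 and 4.76% in STM2457. Of 80 tested 32 were called lower and 0 higher, 72 lay below 0, and the median was -0.19 (0.21 with ERCC scaling). RPS7 (chromosome 2, positions 3575260 to 3580920), of the small subunit, stood at 653 and 745 CPM in DMSO against 505 and 517 CPM in STM2457 (-0.45 ± 0.061). RPL24 (chromosome 3, positions 101681091 to 101686718), of the large subunit, stood at 432 and 446 CPM in DMSO against 304 and 339 CPM in STM2457 (-0.45 ± 0.074, edgeR adjusted p 2.65e-06). RPL26 (-0.40) and RPL34 (-0.39) changed by like amounts. The groups were apart in these 4 genes. RPS29 was an exception: it stood at 1130 and 81.3 CPM in DMSO against 88.2 and 87.8 CPM in STM2457, so that its value of -2.78 comes from DMSO replicate 1 alone. With 1 library left out the call was lost for RPL26 (-0.36 to -0.34) without DMSO replicate 2 or STM2457 replicate 1 and for RPL34 (-0.29) and RPS29 (0.13) without DMSO replicate 1. Settings that did not call a gene named here were DESeq2, limma-voom and robust dispersion estimates (RPS29). With 1 library left out 18 to 23 of the 80 were called, and over the alternatives other than ERCC scaling 18 to 41, with medians from -0.20 to -0.16. Ribosomal protein genes have many processed pseudogenes, so that their counts are uncertain, and RPL26 shares exon sequence (14.5% of its bases) with AC135178.3. In other libraries 46 of the 80 were called lower at 3 h and 54 at 6 h of actinomycin D, 49 at 6 days and 37 in NGP at 3 days, with medians of -0.26, -0.32, -0.29 and -0.22. Of all genes 3.78, 4.36, 1.26 and 1.26% were called lower there. Scaling to ERCC also ended the call of RPS7 (-0.051), RPL24 (-0.049), RPL26 (0.0012) and RPL34 (0.011).

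Transcripts that begin with a C followed by a run of pyrimidines carry the TOP motif, through which growth signalling is known to control their translation. With the rule of a C at the annotated start and at least 4 more C or T after it (same strand), 648 of 13106 promoters matched by symbol began so (4.94%). The share was 68.8% in 64 ribosomal protein genes, 14 of 25 among those called lower and 30 of 39 among those not called. The first bases of 3 called genes with such a start and of 2 without are shown 5′ to 3′, from 10 bases before to 20 bases after the start, with the run in capitals where there is one (RefSeq, GRCh38.p14): RPL24 (chr3:101686699-101686728, minus strand), RPL34 (chr4:108620566-108620595, plus strand), RPL26 (chr17:8383174-8383203, minus strand), RPS7 (chr2:3575250-3575279, plus strand) and RPS29 (chr14:49598691-49598720, minus strand). The annotated start need not be the one used in these cells.
RPL24: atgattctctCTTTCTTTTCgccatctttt
RPL34: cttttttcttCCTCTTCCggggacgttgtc
RPL26: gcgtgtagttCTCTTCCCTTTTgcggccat
RPS7: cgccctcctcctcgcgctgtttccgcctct
RPS29: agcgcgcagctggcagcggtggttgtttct

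Of 34 translation factors and related genes 5 were called lower and 0 higher, with a median of -0.14 (0.26 with ERCC scaling) (over the alternatives other than ERCC scaling 2 to 15 members were called). They were the elongation factor genes EEF1A2 (-0.18) and EEF1D (-0.28), EIF5A (-0.32), which shares exon sequence (8.98% of its bases) with GPS2, NPM1 (-0.34) and HNRNPA1 (-0.17). NPM1, nucleophosmin (chromosome 5, positions 171387116 to 171411137), stood at 2217 and 2177 CPM in DMSO against 1693 and 1777 CPM in STM2457 (-0.34 ± 0.044, edgeR adjusted p 7.27e-10) and was called with any 1 library left out. NCL, nucleolin, the other abundant nucleolar protein, was called higher at 2491 and 2651 CPM in DMSO against 2819.6 and 2911 CPM in STM2457 (0.16 ± 0.042). In 34 nucleolar assembly genes these were the 2 calls, with a median of -0.059 (0.34 with ERCC scaling) (over the alternatives other than ERCC scaling 1 to 5 members were called). The 34 splicing factors had 2 calls each way, with a median of -0.0019 (0.40 with ERCC scaling) (over the alternatives other than ERCC scaling 0 to 6 members were called). These were HNRNPA0 (0.35) and HNRNPF (0.34) higher, HNRNPA1 and HNRNPH1 (-0.35) lower. Leaving out 1 library ended the call for EEF1D (-0.30 to -0.26), HNRNPA0 (0.34 to 0.37) and HNRNPF (0.33 to 0.36) in all 4 such refits, for EEF1A2 (-0.21 to -0.12) and EIF5A (-0.31 to -0.28) without any 1 of the libraries other than DMSO replicate 1 and for HNRNPA1 (-0.11 to -0.088) without DMSO replicate 2 or STM2457 replicate 1. This held too for NCL (0.12 to 0.14) without DMSO replicate 1 or STM2457 replicate 2 and for HNRNPH1 (-0.29) without DMSO replicate 2. Calls were also lost with scaling to library size alone (EEF1A2, HNRNPA1), DESeq2 (EEF1A2, NCL), limma-voom (EEF1A2, HNRNPA1, NCL, HNRNPA0), robust dispersion estimates and the fit of all 48 libraries (EEF1A2), removal of the length trend (EEF1A2, NCL, HNRNPA0), the fit of the 12 Kelly libraries at 3 days (HNRNPA1) and RLE scaling and testing without the low-count filter (HNRNPA0). ERCC scaling lost the call of EEF1A2 (0.22), EEF1D (0.12), EIF5A (0.082), NPM1 (0.060), HNRNPA1 (0.23) and HNRNPH1 (0.055).

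Several abundant chaperones fell at 3 days. HSP90AA1, the inducible cytosolic HSP90 (chromosome 14, positions 102080738 to 102139699), stood at 1611 and 1702 CPM in the DMSO libraries and 1276 and 1307 CPM in the STM2457 libraries (-0.36 ± 0.047, edgeR adjusted p 7.45e-10). HSP90B1, its relative in the endoplasmic reticulum (chromosome 12, positions 103930107 to 103953645), stood at 796 and 766 CPM in the DMSO libraries and 598 and 609.6 CPM in the STM2457 libraries (-0.37 ± 0.061, edgeR adjusted p 2.62e-06) and shares exon sequence (11.6% of its bases) with C12orf73, so that its counts are uncertain. Both calls held with any 1 library left out, and with ERCC scaling they came to 0.042 and 0.029. Of 27 heat shock chaperones 8 were called lower and 0 higher, with a median of -0.20 (0.20 with ERCC scaling) (over the alternatives other than ERCC scaling 1 to 11 members were called). Beside HSP90AA1 these were TCP1 (-0.31) and CCT7 (-0.29) of the TRiC ring, the co-chaperone STIP1 (-0.34), the small heat shock protein HSPB1 (-0.33) and, named after their values were seen, CCT4 (-0.28), CCT5 (-0.27) and HSPA8 (-0.24). Of 22 chaperones of the endoplasmic reticulum 3 were called lower and 0 higher, with a median of -0.21 (0.19 with ERCC scaling) (over the alternatives other than ERCC scaling 1 to 5 members were called). They were HSP90B1, HSPA5, the main HSP70 of that compartment (-0.29), and the lectin chaperone CANX (-0.24). Refits with 1 library left out lost the call for CCT7 (-0.32 to -0.24), HSPB1 (-0.33 to -0.31) and CCT4 (-0.29 to -0.26) in all 4 such refits, for TCP1 (-0.32 to -0.21) without any 1 of the libraries other than DMSO replicate 2 and for CCT5 (-0.27 to -0.24) and HSPA5 (-0.30 to -0.22) without any 1 of the libraries other than DMSO replicate 1. It was also lost for CANX (-0.26 to -0.18) without any 1 of the libraries other than STM2457 replicate 2, for STIP1 (-0.28 to -0.27) without DMSO replicate 1 or STM2457 replicate 1 and for HSPA8 (-0.22 to -0.20) without DMSO replicate 2 or STM2457 replicate 1. The call was absent with limma-voom (CCT7, HSPB1, CCT4), scaling to library size alone, the fit of the 12 Kelly libraries at 3 days and the fit of all 48 libraries (HSPB1, CCT4) and removal of the length trend (CCT4). At 3 h and 6 h of actinomycin D 17 and 16 of the 27 heat shock chaperones were called lower and in NGP at 3 days 7, while in Kelly at 6 days 5 were called higher and 1 lower. Of all genes 3.78 and 4.36% were called lower at 3 h and 6 h and 1.26% in NGP, and 2.7% higher and 1.26% lower in Kelly at 6 days. At 6 days HSP90AA1 differed by 0.17 and HSPA8 by 0.23, and the difference from 3 days passed edgeR's test for both (0.53, adjusted p 3.67e-10, and 0.47, adjusted p 8.10e-07). Both were named after being called lower in the 3-day libraries that enter this difference, so their differences are descriptions. From 3 to 6 days the mean of HSP90AA1 fell from 1656 to 1047 CPM in DMSO and from 1291.5 to 1177 CPM in STM2457. With ERCC scaling the call was also lost for HSP90AA1 (0.042), HSP90B1 (0.029), TCP1 (0.090), CCT7 (0.11), STIP1 (0.058), HSPB1 (0.074), CCT4 (0.12), CCT5 (0.13), HSPA8 (0.16), HSPA5 (0.11) and CANX (0.16).

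In other metabolic lists single genes were called. Of 41 nuclear genes of oxidative phosphorylation NDUFV2, a complex I subunit, was called lower (119.7 and 121 CPM in DMSO against 78.7 and 85.3 CPM in STM2457, -0.55 ± 0.14), and the median was -0.16 (0.24 with ERCC scaling) with 32 members below 0 (over the alternatives other than ERCC scaling 0 to 9 members were called). Of 13 mitochondrial mRNAs MT-ND1 was called lower (4945 and 4413 CPM in DMSO against 4360.1 and 3849.9 CPM in STM2457, -0.19 ± 0.053), with groups apart by less than the gap between its replicates, and the median was 0.028 (0.43 with ERCC scaling). IMPDH2, the rate-limiting enzyme of guanine nucleotide synthesis, was 1 of 25 nucleotide synthesis genes and was called lower with any 1 library left out (126 and 134 CPM in DMSO against 83.3 and 79.3 CPM in STM2457, -0.68 ± 0.11). Of 31 genes of cholesterol and fatty acid synthesis 0 were called (2 at an unadjusted p under 0.05 by edgeR, at most 1 by the alternatives other than ERCC scaling), and FASN and SCD differed by -0.090 ± 0.048 and 0.074 ± 0.056. In refits without 1 library the call was lost for NDUFV2 (-0.60 to -0.49) in all 4 such refits and for MT-ND1 (-0.094 to -0.092) without DMSO replicate 1 or STM2457 replicate 2. Other settings that ended a call were the fit of all 48 libraries (NDUFV2, MT-ND1) and scaling to library size alone, DESeq2, robust dispersion estimates, the fit of the 12 Kelly libraries at 3 days and removal of the length trend (MT-ND1). Not called with ERCC scaling were NDUFV2 (-0.15), MT-ND1 (0.21) and IMPDH2 (-0.28).

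Few proliferation genes passed the test at 3 days. FEN1, the flap endonuclease of lagging-strand synthesis, was called higher as 1 of 41 replication genes (125 and 125 CPM in DMSO against 183 and 201 CPM in STM2457, 0.62 ± 0.12), and its call held with any 1 library left out. FOXM1, a transcription factor of mitotic genes, was called higher as 1 of 36 genes of G2 and mitosis (226 and 237 CPM in DMSO against 304 and 285 CPM in STM2457, 0.35 ± 0.085) and shares exon sequence (15.9% of its bases) with ITFG2, so that its counts are uncertain. The medians of these lists were -0.017 (0.38 with ERCC scaling) and -0.052 (0.35 with ERCC scaling). At 6 days 23 of the 41 and 16 of the 36 were called higher and 0 lower, with medians of 0.47 and 0.33. Of all genes tested 2.7% were called higher and 1.26% lower at 6 days. CDKN1A, the p21 inhibitor of cyclin-dependent kinases, was lower (69.9 and 70.2 CPM in DMSO against 35.0 and 45.9 CPM in STM2457, -0.79 ± 0.21) as the 1 call among 25 p53 targets and among 21 G1 genes, with medians of -0.056 (0.34 with ERCC scaling) and 0.00. Left-out libraries ended the call for CDKN1A (-0.79 to -0.60) without any 1 of the libraries other than STM2457 replicate 2 and for FOXM1 (0.31 to 0.33) without DMSO replicate 1 or STM2457 replicate 1. A call was missing with the fit of the 12 Kelly libraries at 3 days and the fit of all 48 libraries (CDKN1A). In the lists of interferon response (24 genes), mRNA decay (42), immediate early genes (23), HOX clusters (25), Schwann cell (11), immune and blood cell (6) and epithelial cell genes (10) 0 genes were called by edgeR. An unadjusted p under 0.05 was reached by 1 immediate early gene and by 0 members of the other 6 lists. The alternatives other than ERCC scaling, DESeq2 among them, called at most 1 immediate early gene and 0 others. Scaling to ERCC also ended the call of CDKN1A (-0.39).

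**Figure D3:**
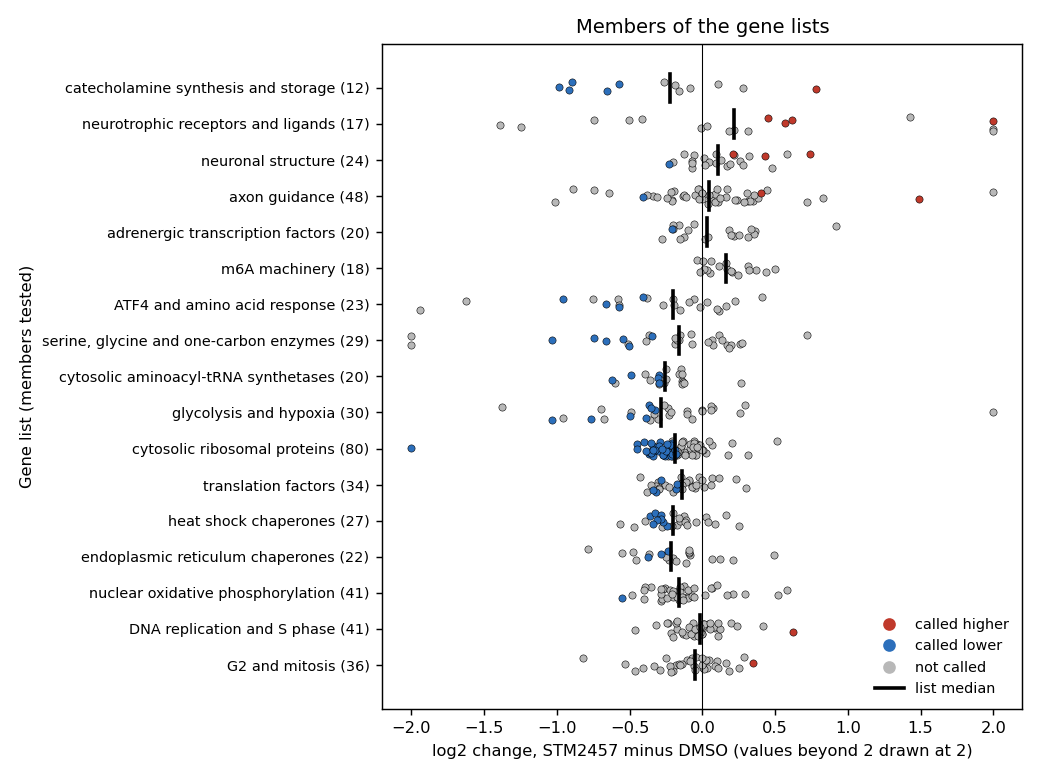
Log2 change of every tested member of 17 of the gene lists, STM2457 minus DMSO with TMM scaling, 1 row per list with its number of members; red and blue points are genes called higher and lower, the vertical mark in a row is the list median, and values beyond 2 are drawn at that limit. The ribosomal protein, tRNA synthetase, glycolysis and chaperone rows lie mostly below 0 and the m6A machinery row mostly above; with ERCC scaling all genes shift by 0.38 and the medians of the former rows come to lie above 0, below the shifted median of all genes.

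The changes found before actinomycin D were looked up in other libraries, whose counts are not part of the group means compared at 0 h. The other Kelly libraries did enter the fit behind the calls, through the filter, the scaling and the pooled spread. At 3 h of actinomycin D (4 other Kelly libraries at 3 days), 95 of the 97 higher genes kept their sign and 45 were called higher, against 2.05% of all genes, and 179 of the 185 lower genes kept theirs and 140 were called lower, against 3.78%. At 6 h, 95 and 178 kept their sign and 57 and 146 were called, against 3.45% and 4.36%. Over all genes tested, 51.2 and 52.8% lay above 0 at 3 h and 6 h and 44.4 and 44.9% below. In Kelly at 6 days 93 of 97 and 156 of 185 kept their sign, and 51 and 77 were called, against 2.7% of all genes higher and 1.26% lower. In NGP at 3 days 84 and 158 kept their sign, and 31 and 73 were called, against 0.709% and 1.26%. The spread was pooled over all Kelly groups (over both lines for NGP), so the tests share it although the libraries differ. Called in the opposite direction were MUC16 at 3 h of actinomycin D, CHRM3 in NGP, and RECQL4, HSPA8, TUBA1B, HSP90AA1, PSMA7 and NEFH at 6 days. MUC16 had 9 and 5 fragments in DMSO and 0 in both STM2457 libraries, and was not called with any 1 library left out, with limma-voom or in fits of 8, 12 or 48 libraries. RECQL4, a helicase of DNA repair, TUBA1B, an alpha-tubulin, and PSMA7, a proteasome subunit, named here for their sign change, went from -0.59, -0.21 and -0.35 at 3 days to 0.83, 0.21 and 0.25 at 6 days. With 1 library left out the call was lost for RECQL4 (-0.64 to -0.53) in all 4 such refits, for TUBA1B (-0.21 to -0.17) without any 1 of the libraries other than DMSO replicate 2 and for PSMA7 (-0.30 to -0.28) without DMSO replicate 2 or STM2457 replicate 1. Settings that did not call a gene named here were limma-voom (RECQL4). ERCC scaling lost the call of RECQL4 (-0.19), TUBA1B (0.19) and PSMA7 (0.047).

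Across all 3 actinomycin D times at 3 days 39 higher and 129 lower genes were called with the same sign, of which 22 and 61 were also called at 6 days and 10 and 31 in NGP as well. Those 10 higher genes included MAP1B, NUDT3, YWHAG, KIAA1549, GFRA2, KIAA1549L, FEN1, AHNAK and FOXM1, and the 31 lower ones held ribosomal protein genes beside IGF2, DLK1, ASNS, ASS1, PHGDH, IMPDH2, GAPDH and NPM1. With the largest change at all 3 times stood PLXNA4 (1.49, 1.05 and 1.25 at 0, 3 and 6 h), ARHGEF28 (1.05, 1.20 and 0.81), BCL2 (0.92, 0.82 and 1.16), TRIM13, a ubiquitin ligase gene (0.77, 0.98 and 1.07), and MRPL41 of the mitochondrial ribosome (0.75, 0.81 and 1.01). Of lower genes of at least 10 CPM, CARTPT (-2.17, -1.99 and -2.07), CRH (-2.74, -2.04 and -1.98) and ARHGAP36 (-1.27, -1.24 and -1.59) were the largest. FEN1 differed by 1.10 at 3 h and 1.52 at 6 h against 0.62 at 0 h. RFK stood at -1.08, -1.48 and -1.67. HAND2 was at 0.16 and 0.15 and ATP7A at 0.54 and 0.18, and differences between the times were not tested. TRIM13 shares exon sequence (13.4% of its bases) with KCNRG and is uncertain. Leaving out 1 library ended the call for TRIM13 (0.70 to 0.87) in all 4 such refits and for MRPL41 (0.44 to 0.67) without DMSO replicate 1 or STM2457 replicate 1. Calls were also lost with limma-voom and the fit of all 48 libraries (MRPL41).

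**Figure D4:**
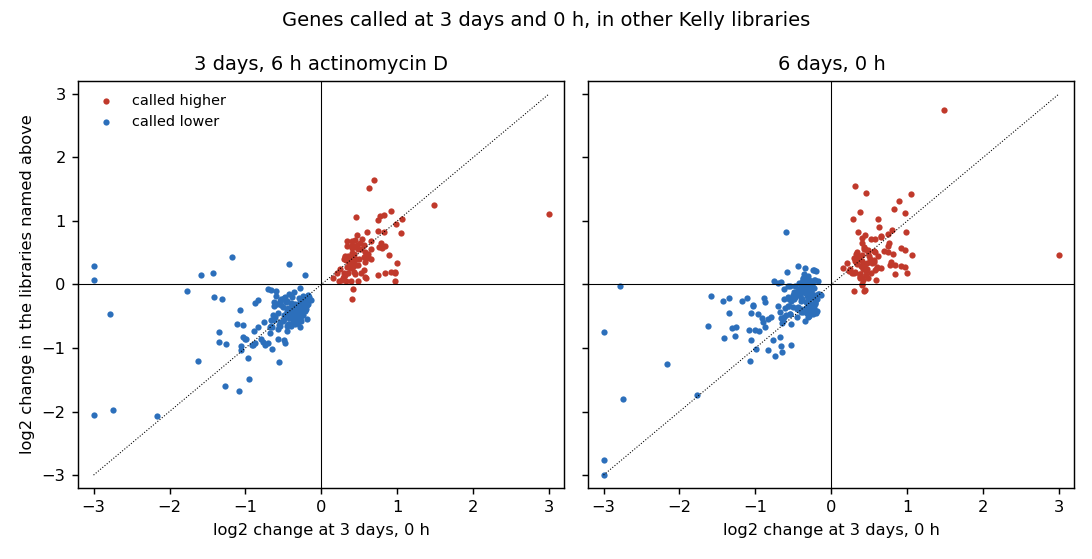
Genes called at 3 days and 0 h, placed by their log2 change there and by their change in other Kelly libraries (left, 3 days and 6 h of actinomycin D; right, 6 days and 0 h), STM2457 minus DMSO in each case, with red for genes called higher, blue for genes called lower and a dotted line of equal change; values beyond 3 are drawn at that limit. Most points lie in the quadrants of equal sign, with 95 of 97 higher genes there at 6 h and more exceptions among the lower genes at 6 days (156 of 185).

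The effect of 6 days was tested against that of 3 days in 1 model, where the 3-day libraries enter both sides. The difference passed edgeR's test (adjusted p under 0.05) with a value above 0 for 114 of 16759 genes (0.68%) and below 0 for 18 (0.107%). With ERCC scaling, which moved the median difference of all genes to -0.62, the split turned to 7 above and 4002 below. Of the 6 genes named for the smallest adjusted p of this difference, CLSTN2 alone was called at 3 days. STRA6, a retinol uptake receptor, differed by 0.18 at 3 days and 2.28 at 6 days, the plexin gene PLXNA2 by 0.061 and 1.54, and CLSTN2 by 0.32 and 1.55. In the other direction MT-ND4 went from 0.046 to -0.31, MT-CO2 from 0.024 to -0.30 and the elongation factor gene EEF1A1 from 0.066 to -0.25. Such a difference can come from either group. From 3 to 6 days the mean of CLSTN2 went from 350 to 127 CPM in DMSO and from 435 to 371 CPM in STM2457. That of ASS1 went from 151 to 173 CPM in DMSO and from 73.8 to 137 CPM in STM2457. Of the genes that led at 3 days, IGF2, RTL1, ASS1, ITGB5 and GNAS came closer to 0 at 6 days (-0.45, -0.21, -0.34, 0.031 and -0.17), and the difference passed for each (0.62, 0.67, 0.69, 0.70 and 0.28). These 5 were chosen for their values at 3 days, so their differences are descriptions. Between the lines the difference at 3 days, NGP minus Kelly, passed the same test with a value above 0 for 15 of 17343 genes (0.0865%) and below 0 for 13 (0.075%). ZNF704 rose more in NGP (1.03 against 0.38), whereas GNAS was at -0.056 there against -0.46 and AKAP12 at 0.11 against 0.52. The contactin gene CNTN2 (0.63 in Kelly, -0.49 in NGP) and IGFBP5, an IGF-binding protein (0.36 and -0.60), lay on opposite sides of 0, and neither was called in Kelly. STRA6 shares exon sequence (6.77% of its bases) with CCDC33, so that its counts are uncertain.

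Called genes differed from the rest in the shape of their transcripts. Over the main transcript of each gene (MANE, GENCODE 44), the median 3′ untranslated region was 2667 bases for higher genes and 624 bases for lower genes, against 1248 for all tested and 1694 for the highest CPM class, from which most called genes come. It was over 2000 bases in 63.8% of higher and 18.8% of lower genes, against 44.5% of that class. The last exon had medians of 3566 and 811 bases against 1978. Leaving out ribosomal protein genes, whose transcripts are short, the lower genes still had a median of 786 bases. The density of GGACT, the commonest form of the m6A consensus, was alike over the whole transcript, at 0.910 per kb in higher and 0.911 in lower genes against 0.867. The median transcript had 6395 bases in higher and 2352 bases in lower genes against 4326, so a like density means more copies in a longer transcript. Copies within the 3′ untranslated region or long internal exons were not counted. GC content was 47.3% and 52.9% against 46.7%. Among genes of at least 10 CPM the share called lower fell from 4.01% with a 3′ untranslated region under 500 bases over 1.99, 1.75 and 0.917% to 0.861% at 4000 bases and above, and the share called higher rose from 0.375 to 2.38%. The median change of all genes in these classes went from -0.060 to 0.075, and from -0.063 to 0.040 once a trend of each library on exon length had been removed. No test was made of these shares, and how far fragment length or RNA quality moves with transcript length was not tested.

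**Figure D5:**
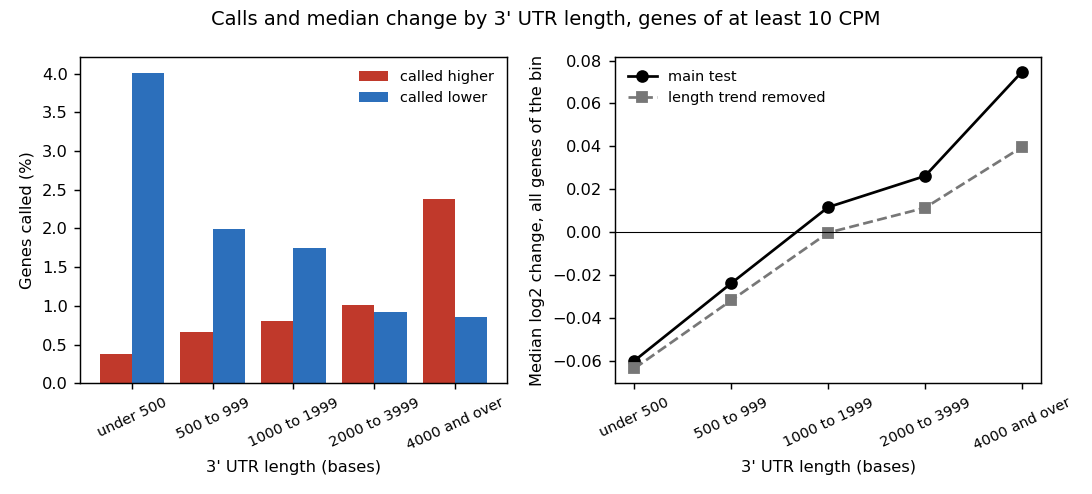
Genes of at least 10 CPM in 5 classes of 3′ untranslated region length (bases): bars give the share of genes called higher and called lower (percent), and points on the right the median log2 change of all genes in the class, as tested and with the length trend removed. The lower share falls and the higher share rises with length, with at most 4.01% called in 1 direction in any class; the medians run from -0.060 to 0.075.

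The decay of these transcripts in DMSO-treated cells was read from DMSO libraries at 6 days, which share no sample with the comparison. There 13.2% of all genes were called higher at 6 h of actinomycin D than at 0 h, that is lost more slowly than the typical gene, and 13.3% lower. Of the 185 genes lower under STM2457, 140 were called slower and 10 faster, with a median of 0.57. Of the 97 higher genes 36 were slower and 22 faster, with a median of 0.14. In the highest CPM class 1568 of 4190 genes were slower and 993 faster, with a median of 0.15. The lower genes without ribosomal proteins had a median of 0.54. Among single genes TH was at 1.08, RPS7 at 0.53, LDHA at 0.59 and ASNS at 0.48, while C2CD4A was at -1.73, CDKN1A at -1.48 and MT-ND1 at -2.64. Of the higher genes MAOA was at 0.25, AKAP12 at 0.28, RET at 0.91, BCL2 at -0.30, SLC6A17 at -1.41 and FEN1 at -1.57. These values are relative to the typical transcript.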

How the data were processed

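Poly(A) RNA of 48 libraries was sequenced, of which 4 are compared here. The authors deposited raw counts of fragments in exons of each gene (featureCounts, Subread 1.5.3, paired ends, no strand option, per the file headers). HISAT2 2.1.0, Trimmomatic 0.36 and build GRCh38 are named in the submitters' processing notes.

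Groups came from the titles. All 24 Kelly libraries (12 groups) were fitted with edgeR 4.0.16 (R 4.3.3; quasi-likelihood, TMM, filterByExpr with minimum count 10 and total 15), which pools the spread; NGP minus Kelly used all 48 libraries and 17343 genes. SE is the absolute log2 change over the square root of F. No gene set was tested. Alternatives were other scalings (RLE, library size, ERCC), no filter, DESeq2 1.42.0, limma-voom (limma 3.58.1), robust dispersion, other sets of libraries, the replicate number as a block, a length trend removed, and each library left out. The test was checked on simulated counts.

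The libraries, gene lists (39) and rules were chosen with earlier results of these data known. A further 3 lists were written after the values had been seen. Named genes were METTL3, METTL14, WTAP and MYCN, the 12 largest changes per direction among called genes of at least 10 CPM with groups apart, the 5 of smallest adjusted p, up to 5 called members of a list (of lists without a call the 2 most abundant), 3 per direction for each difference, and the 5 per direction with the largest smallest change at all 3 times. Not every gene that this rule names is reported here. Others are marked as named after their values were seen, or named for a count of few genes. List medians include genes with a group at 0 counts; setting those to a floor of 3 counts over the group changed the median of 2 lists, HOX clusters (0.08 to 0.06) and ion channels (0.01 to 0.00).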

Additional observations from a re-analysis of the deposited data

Results flagged for a closer look

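Each result here is a difference of 2 effects of STM2457 that passed edgeR's quasi-likelihood test of the interaction term with Benjamini-Hochberg adjustment. Groups of 2 libraries are too small to look for single libraries far from the others. The 3-day Kelly libraries of the main comparison enter each difference, and no explanation was tested. Many of the genes were named for their change in those libraries, so their differences are descriptions. The values are relative to the typical gene with TMM scaling: with ERCC scaling the median difference of all genes was -0.62 for 6 minus 3 days and -0.28 for NGP minus Kelly, so that smaller positive values can turn sign.

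Between 6 and 3 days in Kelly, the effect was higher at 6 days for ASS1 (0.69), CLSTN2 (1.23), FASN (0.34), FOXM1 (0.48), GNAS (0.28), HSP90AA1 (0.53), IGF2 (0.62), ITGB5 (0.70), NEFH (0.45), PKM (0.43), PLXNA2 (1.48), RET (0.99), RPS29 (2.76), RTL1 (0.67), STRA6 (2.09), TPI1 (0.47), GAPDH (0.20), HSPA8 (0.47), ENO1 (0.39), TUBA1B (0.42), PSMA7 (0.60) and RECQL4 (1.42). It was lower at 6 days for EEF1A1 (-0.31), MAOA (-0.43), MT-CO2 (-0.33) and MT-ND4 (-0.36). The adjusted p of these 26 differences lay between 1.70e-18 and 0.0402. For RPS29 the value rests on the single high count in DMSO replicate 1 at 3 days. A higher effect at 6 days need not mean a higher level under STM2457. The mean of FOXM1 went from 231 CPM at 3 days to 149 CPM at 6 days in DMSO and from 295 to 264 CPM in STM2457.

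Between the lines at 3 days, the effect was higher in NGP than in Kelly for ASS1 (0.57), CHGA (0.31), CHRM3 (2.38), DDC (0.90), GNAS (0.39), MT-CO2 (0.42), ZNF704 (0.64) and DBH (0.69). It was lower in NGP for AKAP12 (-0.41), CACNA1H (-7.44), CNTN2 (-1.13) and IGFBP5 (-0.97). The adjusted p of these 12 differences lay between 6.66e-07 and 0.0225. CACNA1H had 0 fragments in both Kelly DMSO libraries at 3 days, so its fitted value depends on the prior count and is no measure of size.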

How the results depend on the processing

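The main count of 282 genes (97 higher, 185 lower) became 3727 (3694 higher, 33 lower) with ERCC scaling, 557 (183 higher, 374 lower) with DESeq2, 486 (200 higher, 286 lower) in a fit of the 4 libraries alone and 479 (188 higher, 291 lower) in a fit of the 8 Kelly libraries at 0 h. Limma-voom called 120 lower genes, and scaling to library size alone turned the split to 125 higher and 142 lower. With 1 library left out, where the lone sample of a group is assumed to vary like the other groups, the counts ran from 122 to 158 (38 to 56 higher, 79 to 104 lower). The count for 6 minus 3 days was 132 (114 above, 18 below). It became 4009 (7 higher, 4002 lower) with ERCC scaling and 296 (248 higher, 48 lower) with DESeq2, with 71 above and 28 below for library size alone. Those below were 9 with limma-voom, 43 for the 8 libraries at 0 h and 8 with the length trend removed, and leaving out 1 library gave 71 to 80 (52 to 63 above, 17 to 22 below). The 28 genes for NGP minus Kelly (15 above, 13 below) became 644 (631 below) with ERCC scaling, 98 (51 higher, 47 lower) without the low-count filter and 26 to 59 (19 to 33 above, 7 to 26 below) with 1 library left out. The cause of these shifts was not tested. With 1 library left out the Kelly fits held fewer samples and also tested other numbers of genes, 17884 to 17909 in place of 16759.

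With ERCC scaling the sign turned for AARS1 (0.10), CANX (0.16), CCT7 (0.11), CHGB (0.40), CNOT1 (0.37), EEF1A2 (0.22), EEF1D (0.12), EIF5A (0.082), EPRS1 (0.094), FASN (0.31), HAND2 (0.19), HNRNPA1 (0.23), HNRNPH1 (0.055), HSP90AA1 (0.042), HSP90B1 (0.029), HSPA5 (0.11), HSPB1 (0.074), IGF2BP1 (0.38), MT-ND1 (0.21), MYCN (0.30), NEFH (0.17), NPM1 (0.060), PKM (0.016), RPL26 (0.0012), RPL34 (0.011), STIP1 (0.058), TCP1 (0.090), TPI1 (0.033), VARS1 (0.10), GAPDH (0.074), HSPA8 (0.16), ENO1 (0.047), MTHFD1 (0.050), CCT4 (0.12), CCT5 (0.13), TUBA1B (0.19) and PSMA7 (0.047), all at or below 0.40 where the median of all genes was 0.38. RPS29 ran from -3.68 without DMSO replicate 2 to 0.13 without DMSO replicate 1. Of 101 named called genes 45 lost the call with ERCC scaling. The calls lost numbered 0 to 7 with RLE scaling, library size alone, no filter, DESeq2 (90 kept, 6 lost, 5 with no adjusted p), robust dispersion, the 4 or 8 libraries and the length trend, 26 with limma-voom, 13 and 25 in fits of 12 and 48 libraries, and 32 to 43 with 1 library left out.

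The replicate numbers do not pair the samples: deviations of same-numbered DMSO and STM2457 libraries correlated at -0.0053. With the replicate number as a block, 307 genes were called (112 higher, 195 lower), 144 for 6 minus 3 days and 32 for NGP minus Kelly, and no named gene lost its call. With 2 libraries a group, changes under 2-fold in genes of low count mostly stay below detection.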

Other observations

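The lists in this paragraph and the next were written after the values had been seen and describe them only. Among 23 imprinted genes tested 4 were called lower and 0 higher: IGF2 (-1.06), RTL1 (-0.89), DLK1 (-0.55) and GNAS (-0.46). DLK1 and RTL1 lie in the same imprinted cluster on chromosome 14. At 6 days the 4 stood at -0.45, -0.21, -0.34 and -0.17 and were called there too, whereas in NGP at 3 days IGF2 (-0.69) and DLK1 (-0.64) were called and RTL1 (-0.18) and GNAS (-0.056) were not. Of 13 neuropeptide genes CARTPT and CRH were called lower and 0 higher, and 5 of the 13 had a group at 0 counts.

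Of 31 proteasome subunit genes 4 were called lower and 0 higher, with a median of -0.22 (0.18 with ERCC scaling): PSMA7, PSMC4, PSMD3 and PSMD8. The median was -0.35 at 3 h and -0.50 at 6 h of actinomycin D, where 18 and 19 were called lower, and 0.17 at 6 days, where 6 were called higher and 0 lower. In NGP at 3 days 3 were called lower, with a median of -0.23. Of all genes 3.78 and 4.36% were called lower at 3 h and 6 h of actinomycin D and 1.26% in NGP. At 6 days 2.7% of all genes were called higher and 1.26% lower.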
